A study of Nicotiana tabacum with 9 samples.

Results

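The genes described here are the 4 that encode the decarboxylases at the entrance of polyamine synthesis in tobacco, 3 arginine decarboxylase genes and 1 ornithine decarboxylase gene. They are *ADC1* (GeneID:107796783), *ADC1A* (GeneID:107774919), *ADC2* (GeneID:107767963) and *ODC* (GeneID:107815922), and they were taken by identifier, which is 4 of the 76785 gene rows in each table. They are also the 4 genes in the tables that the reference names *ADC* or *ODC*, so copies known only by a number are not covered. All 4 passed the filter on low values, which left 27836 genes for the test. RNA-seq was done on pollen of *Nicotiana tabacum* cv. Petite Havana SR1 of 3 genotypes, which were WT plants, *ATG2* RNAi plants and *ATG5* RNAi plants, with 3 libraries each and 9 in all. The labels give the stage as bicellular pollen, and all plants were grown alike in a glasshouse. Both silenced genes belong to autophagy, the pathway by which cells enclose and degrade their own contents. The *ATG2* protein works with ATG9 while the enclosing membrane grows, and the *ATG5* protein is joined to ATG12. The promoter of the silencing constructs and the number of independent lines behind each genotype are not given in the sources used here.

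Polyamines are small, positively charged molecules that bind nucleic acids and membranes. Plants make the simplest of them, putrescine, by 2 routes, from arginine through arginine decarboxylase (ADC) and agmatine, or directly from ornithine through ornithine decarboxylase (ODC). Putrescine is then extended to spermidine and spermine with aminopropyl groups that come from decarboxylated S-adenosylmethionine. In pollen, polyamines are known from the grain wall, where they are bound to phenolic acids, and from the growing tube. In the roots of tobacco, putrescine is also the precursor of nicotine.

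The values are FPKM, fragments scaled to transcript length and to the mapped fragments of the library, so that levels of different genes in 1 library can be compared per length. The targeted genes were low in their own lines. *ATG2* lay at 0.2 to 0.3 FPKM in *ATG2*-silenced pollen and at 0.9 to 1.18 FPKM in WT, and *ATG5* at 0.1 to 0.23 FPKM in *ATG5*-silenced pollen and at 1.04 to 1.60 FPKM in WT. In *ATG5*-silenced pollen *ATG2* was at 0.57 to 0.65 FPKM, also below WT as deposited, with a log2 change of -0.27 after scaling that did not pass (adjusted p = 0.149). At such low levels, the 0.5 added before the log2 draws a change towards 0. Of the marker lists, 5 pollen genes summed to 25000 to 26900 FPKM in WT, 27200 to 28600 in *ATG2*-silenced pollen and 40200 to 44200 in *ATG5*-silenced pollen. Their members went opposite ways there, since *ntp101*, *ntp201* and *ntp805* were above and *PPME1* and *PRO1* below every WT library, such as *ntp201* at 15180 to 16265 against 4959 to 6048 FPKM and *PPME1* at 2088 to 2517 against 3840 to 4602 FPKM. The 11 green tissue genes summed to 2.00 to 4.02, 0.9 to 1.5 and 0.120 to 0.620 FPKM in the same order, with 1 of them at 0 in every library, and the part of such other cells in the results was not tested. The 11 root genes summed to 0.970 to 1.30, 1.1 to 1.2 and 0.630 to 1.44 FPKM, with 4 of them at 0 in every library. Much of each sum came from *QPT1B*, at 0.41 to 1.23 FPKM, whose enzyme also serves NAD synthesis. No anther wall marker of the list was matched by name. For tests, each library was divided by a scaling factor from the median of its gene ratios, 0.978 to 1.04 in WT, 1.06 to 1.11 in *ATG2*-silenced pollen and 0.751 to 0.791 in *ATG5*-silenced pollen. Changes are log2 of scaled FPKM plus 0.5, tested with limma over all genes, two-sided and adjusted by Benjamini-Hochberg. A gene passed at an adjusted p under 0.05 and was called where the fold was also above 2 or below 0.5.

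Transcripts of *ADC2*, *ADC1* and *ODC* were lower in *ATG5*-silenced pollen than in WT, at 24.2%, 35.8% and 39.7% of the WT mean in FPKM as deposited, whereas *ADC1A* stood at 99.2%. After scaling, the fall was smaller, to 31.1%, 46.1% and 51.3%, and *ADC1A* stood at 128%. None of the 4 genes passed the test in *ATG2*-silenced pollen, where their means as deposited were 89.2% to 122% of WT. The plot of FPKM by library shows the values as deposited.

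**Figure D1:**
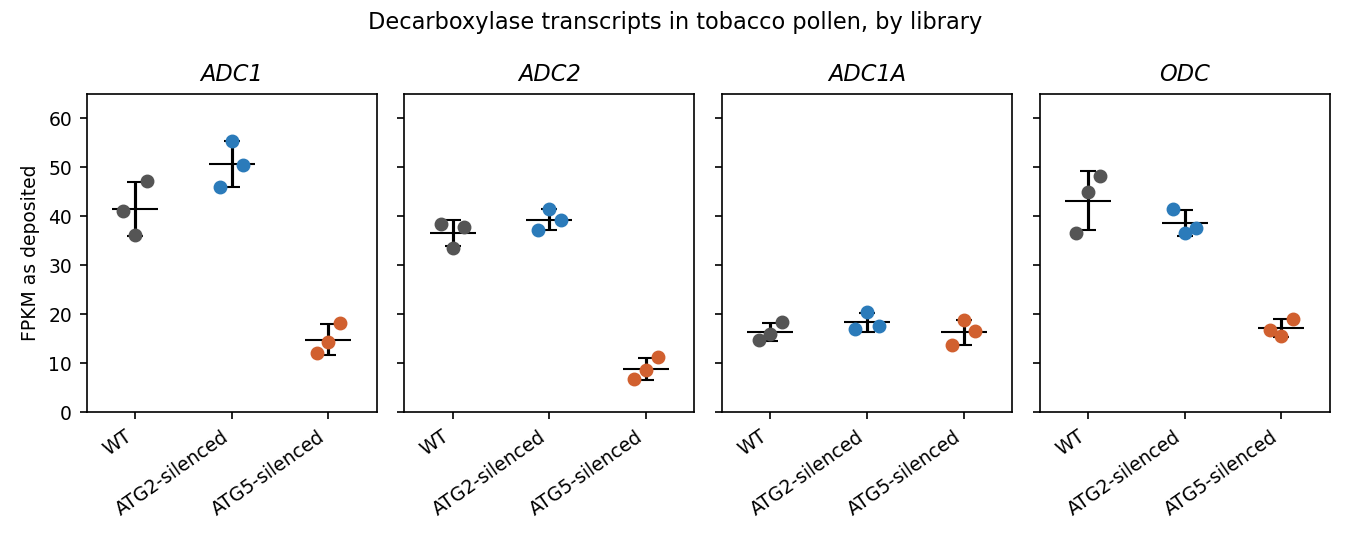
FPKM as deposited (y axis, linear) of *ADC1*, *ADC2*, *ADC1A* and *ODC* in each of the 9 libraries, by genotype (x axis); points are libraries, the long bar is the mean and the whiskers are 1 SD of 3 libraries. The *ATG5*-silenced libraries lie below all others for *ADC1*, *ADC2* and *ODC*, at 6.80 to 19.1 FPKM, and among the others for *ADC1A*.

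In WT pollen, *ODC* stood at 43.2 ± 5.95 FPKM, *ADC1* at 41.5 ± 5.49 FPKM, *ADC2* at 36.6 ± 2.68 FPKM and *ADC1A* at 16.4 ± 1.84 FPKM (SD, n = 3 libraries). The ranges of the first 3 genes overlapped, and their order in replicate 1 differed from that in the other 2, so that they cannot be ranked. *ADC1A* was the lowest of the 4 in each WT library. *ADC1*, *ADC2* and *ODC* were above 90.0% to 91.9% of the tested genes in their WT library, and *ADC1A* above 82.7% to 84.2%. All 4 genes were thus well expressed in WT pollen. With *ATG2* silenced, *ADC1* was the highest and *ADC1A* the lowest in each of the 3 libraries. In *ATG5*-silenced pollen the order was another one. *ADC2* was the lowest of the 4 in each of the 3 libraries, and *ODC*, *ADC1A* and *ADC1*, with means of 17.2, 16.3 and 14.8 FPKM, overlapped.

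*ADC2*, 1 of the 3 arginine decarboxylase genes, changed most of the 4. It lay at 38.5, 33.5 and 37.7 FPKM in WT replicates 1, 2 and 3, and at 37.1, 41.5 and 39.3 FPKM in the *ATG2*-silenced replicates. In the *ATG5*-silenced replicates it lay at 6.80, 8.53 and 11.2 FPKM, each far below every library of the other genotypes. The log2 change against WT was -1.66 (standard error 0.14, adjusted p = 1.87e-05), or 0.316 of the WT level after scaling. Of all tested genes, 2.17% had a lower log2 change in this comparison. Silencing of *ATG2* left overlapping groups and a log2 change of -0.03, with a 95% interval from -0.34 to 0.29 (adjusted p = 0.954).

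*ADC1*, which also encodes arginine decarboxylase, lay at 41.0, 36.3 and 47.2 FPKM in WT replicates 1, 2 and 3. It lay at 46.0, 55.4 and 50.4 FPKM in the *ATG2*-silenced replicates and at 12.0, 14.3 and 18.2 FPKM in the *ATG5*-silenced replicates. The *ATG5*-silenced libraries were again below all others, and the other 2 genotypes overlapped. The log2 change in *ATG5*-silenced pollen was -1.11 (standard error 0.13, adjusted p = 1.54e-04), and 6.76% of the tested genes had a lower one. Without *ATG5*-silenced replicate 1, the library with the lowest value, the log2 change was -0.98 (adjusted p = 4.79e-04), which misses the fold. The log2 change with *ATG2* silenced was 0.16 (95% interval from -0.15 to 0.46, adjusted p = 0.604).

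*ODC*, the ornithine decarboxylase gene, lay at 36.6, 44.9 and 48.1 FPKM in WT replicates 1, 2 and 3, and at 41.5, 36.5 and 37.5 FPKM in the *ATG2*-silenced replicates. In the *ATG5*-silenced replicates it lay at 16.9, 15.5 and 19.1 FPKM, below every other library. The log2 change in *ATG5*-silenced pollen was -0.94 (standard error 0.11, adjusted p = 1.54e-04), a fall to 0.520 of WT, which passed the adjusted p and just missed the fold. Without scaling (FPKM as deposited), as TPM (each library rescaled to the same total) or after quantile normalization, the log2 change was -1.30, -1.23 and -1.06, so that *ODC* passed the fold as well. Against WT, the *ATG2*-silenced libraries had a log2 change of -0.29, with a 95% interval from -0.55 to -0.03 and an unadjusted p of 0.0341 in limma. It did not pass the adjustment (adjusted p = 0.235), and 1 of the 3 *ATG2*-silenced libraries lay within the WT range after scaling.

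*ADC1A*, the third gene for arginine decarboxylase, lay at 14.8, 16.1 and 18.4 FPKM in WT replicates 1, 2 and 3, and at 16.9, 20.5 and 17.6 FPKM in the *ATG2*-silenced replicates. It lay at 13.7, 18.7 and 16.5 FPKM in the *ATG5*-silenced replicates, which overlapped with both other genotypes. After scaling, it ranged from 18.2 to 23.9 with *ATG5* silenced, just above its WT range of 15.1 to 17.6. The log2 change was then 0.34 (standard error 0.12, adjusted p = 0.0343), and 67.2% of the tested genes had a lower one. This direction depends on the scaling. The log2 change was -0.02 without scaling (adjusted p = 0.923), 0.05 as TPM (adjusted p = 0.759) and 0.20 after quantile normalization (adjusted p = 0.146). These scalings moved the median of all genes from -0.03 to -0.30, -0.25 and -0.15. Relative to that median, *ADC1A* was higher by 0.37 as scaled here and by 0.28, 0.30 and 0.36 under the other 3. Taking out the median nearly repeats the main scaling, so these values are no separate support for a rise, and they were not tested. As scaled here, *ADC1A* also missed the adjusted p without *ATG5*-silenced replicate 2 (0.109) or 3 (0.0664), or without WT replicate 1 (0.122) or 2 (0.0813). The log2 change of *ADC1A* with *ATG2* silenced was 0.03 (95% interval from -0.23 to 0.29, adjusted p = 0.937).

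Counted together, 3 of the 4 genes were lower and 1 was higher by the adjusted p when *ATG5* was silenced, where 24.9% of all tested genes were lower and 27.1% higher (39.3% and 18.6% without scaling, 36.4% and 19.9% as TPM, 31.3% and 22.5% after quantile normalization). With the fold, 2 of the 4 were called lower, against 7.75% of all tested genes. The number called lower was 3 without scaling, as TPM, after quantile normalization or without WT replicate 1, and it was 1 without *ATG5*-silenced replicate 1. The median log2 change of the 4 genes was -1.03, against -0.03 for all tested genes. For *ATG2*-silenced pollen limma passed 0 of the 4 genes (1 at an unadjusted p under 0.05), where 0.410% of all tested genes were lower and 0.672% higher. Their median log2 change there was 0.001, against 0.03 for all tested genes. In whole pollen grains, fewer cells of a type and less RNA per cell cannot be told apart.

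**Figure D2:**
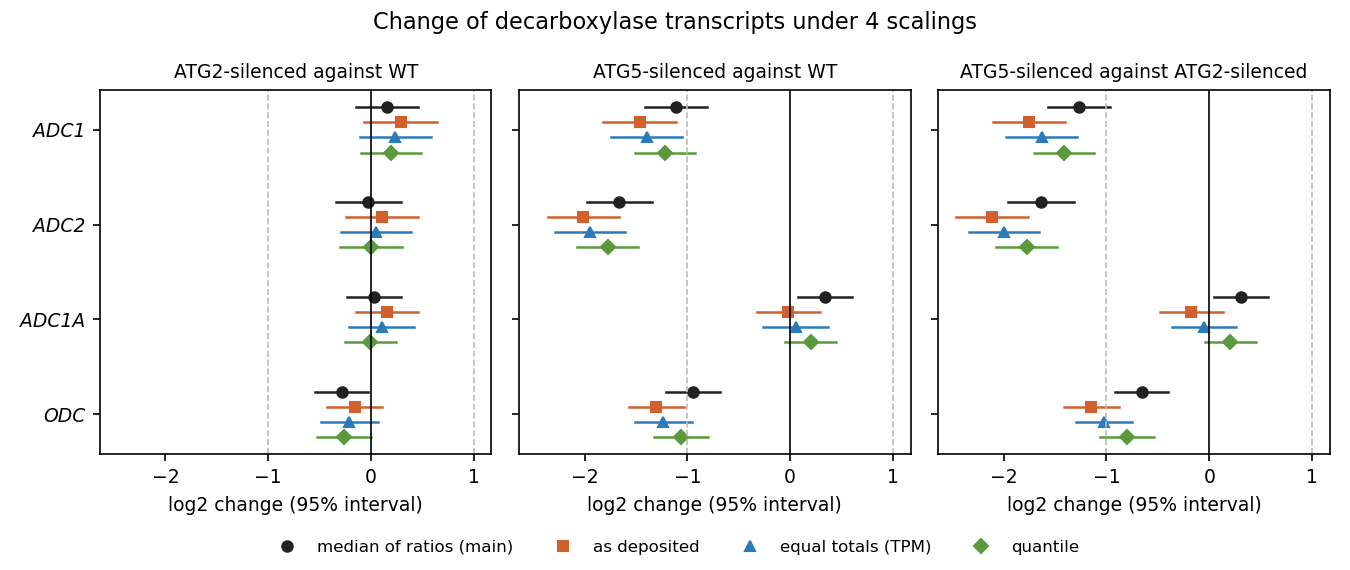
log2 change with its 95% interval (x axis) of the 4 genes (y axis) in the 3 comparisons, under the median-of-ratios scaling of the text and 3 others; dashed lines mark a fold of 2 or 0.5. *ADC1*, *ADC2* and *ODC* stay below 0 in *ATG5*-silenced pollen under all 4 scalings, while *ADC1A* lies between -0.02 and 0.34 against WT.

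The lines were also compared with each other, which tests whether the changes differ between *ATG5*-silenced and *ATG2*-silenced pollen. *ADC2* was the lower in *ATG5*-silenced pollen, with a log2 difference of -1.64 (standard error 0.14, adjusted p = 2.10e-05), *ADC1* by -1.27 (standard error 0.13, adjusted p = 6.92e-05) and *ODC* by -0.66 (standard error 0.11, adjusted p = 0.00121). For these 3 genes the libraries of both lines did not overlap, and the share of all tested genes without overlap was not computed. *ADC1A* was higher by 0.31 (standard error 0.12, adjusted p = 0.0461) with overlapping libraries, and this turned to -0.17 without scaling and to -0.05 as TPM. It also missed the adjusted p when any single library other than *ATG2*-silenced replicate 2 or *ATG5*-silenced replicate 1 was left out, at 0.0504 to 0.147. In this comparison 27.5% of all tested genes were lower and 26.8% higher at an adjusted p under 0.05, and 9.66% were called lower with the fold, as were 2 of the 4 genes.

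Ratios between the genes within a library need no scaling. *ADC1A* stood at 0.384 to 0.488 of *ADC2* in WT and at 0.448 to 0.494 of it with *ATG2* silenced. With *ATG5* silenced it stood at 1.47 to 2.19 of *ADC2*, a ratio 4.16-fold higher than in WT. *ADC1A* stood at 0.361 to 0.443 of *ADC1* in WT and at 0.904 to 1.31 in *ATG5*-silenced pollen. Relative to both other arginine decarboxylase genes, *ADC1A* was thus higher in each *ATG5*-silenced library than in any WT library. *ADC1* stood at 1.06 to 1.25 of *ADC2* in WT and at 1.63 to 1.76 of it with *ATG5* silenced, again without overlap. The ratio of *ODC* to *ADC1* overlapped between WT (0.893 to 1.24) and *ATG5*-silenced pollen (1.05 to 1.40). Of the 6 ratios, 5 did not overlap between *ATG5*-silenced pollen and WT, 6 between both silenced lines, and 1, that of *ADC1A* to *ODC*, between *ATG2*-silenced pollen and WT. Each of these gave p = 0.10 in an exact permutation test (two-sided), the smallest that 3 against 3 libraries allow, and 0.15 adjusted over the 18 ratio comparisons. These comparisons were chosen after the values were seen. How often ratios between other genes lack overlap was not computed, so the counts are not shown to be particular to these 4 genes. Single genes often passed the adjusted p, with 24.9% of all tested genes lower and 27.1% higher in *ATG5*-silenced pollen against WT.

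The summed FPKM of the 4 genes was 138 ± 11.9 in WT (SD, n = 3 libraries). It was 147 ± 6.42 with *ATG2* silenced and 57.1 ± 7.86 with *ATG5* silenced. After scaling, the sum was 137 ± 6.67 in WT, 134 ± 4.22 with *ATG2* silenced and 73.5 ± 8.32 with *ATG5* silenced. *ADC1A* made up 11.3% to 12.3% of this sum in WT, 11.9% to 13.3% with *ATG2* silenced and 25.3% to 32.8% with *ATG5* silenced. *ADC2* made up 24.9% to 29.4%, 26.2% to 27.1% and 13.8% to 17.3% in the same order. *ADC1* made up 27.7% to 31.3%, 32.5% to 36% and 24.3% to 28.1%. Its share with *ATG2* silenced thus lay above the WT range, which was not tested. The share of *ODC*, the other route to putrescine, was 31.4% ± 3.17 in WT, 26.3% ± 2.82 with *ATG2* silenced and 30.2% ± 3.59 with *ATG5* silenced (SD, n = 3 libraries). All 3 ranges of the *ODC* share overlapped (exact permutation test, two-sided, p = 0.70 for *ATG5*-silenced pollen against WT, and p = 0.20 for each of the other 2 comparisons). The shares of *ADC1A* and *ADC2* in *ATG5*-silenced pollen were thus apart from those in WT, and a difference in the *ODC* share was not detectable with 3 libraries.

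**Figure D3:**
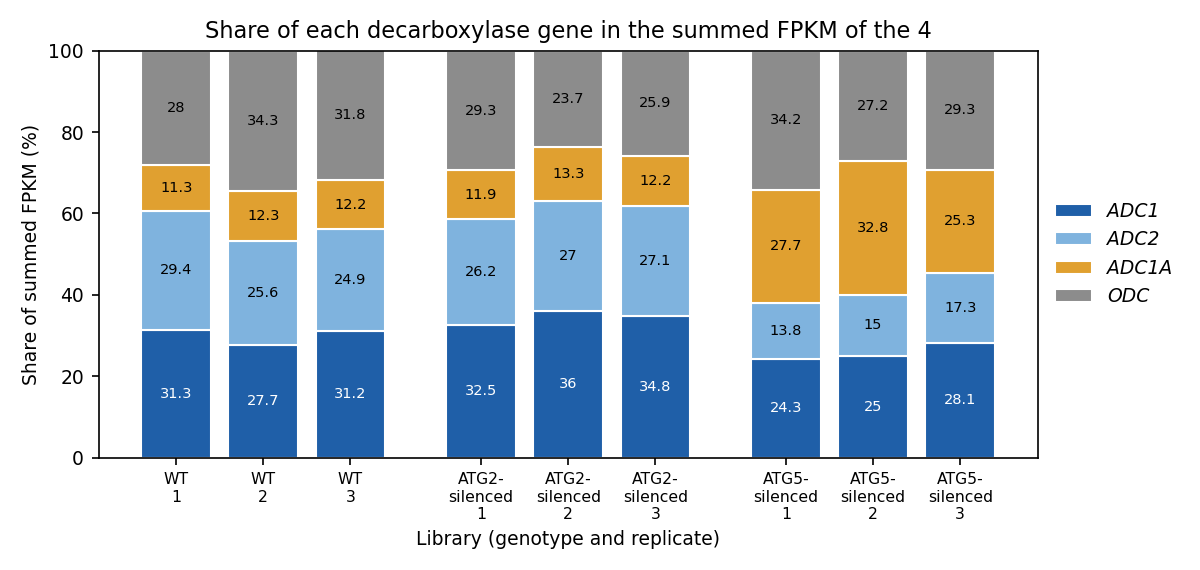
Share in percent (y axis) of *ADC1*, *ADC2*, *ADC1A* and *ODC* in their summed FPKM, in each library (x axis, genotype and replicate number). *ADC1A* takes 25.3% to 32.8% where *ATG5* is silenced and 11.3% to 13.3% in the other 6 libraries.

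RSEM divides reads that match several copies of a gene between them, so the single values of *ADC1*, *ADC1A* and *ADC2* are less certain than their sum where their sequences are alike, which was not analysed here. The sum of the 3 genes after scaling was 94.3 ± 5.88 in WT, 98.7 ± 6.17 with *ATG2* silenced and 51.4 ± 7.56 with *ATG5* silenced (SD, n = 3 libraries). The last was 0.545 of WT, with no overlap (exact permutation test, two-sided, p = 0.10, the smallest possible). With *ATG2* silenced it was 1.05 of WT (p = 0.50, same exact test). Adjusted over these 6 permutation tests of sums and *ODC* shares, no p was below 0.30.

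Across the 9 libraries, *ADC1* and *ADC2* had a Pearson's r of 0.985 on the scaled log2 values, *ADC2* and *ODC* of 0.899 and *ADC1* and *ODC* of 0.851. *ADC1A* had an r of -0.682 with *ADC1*, -0.740 with *ADC2* and -0.763 with *ODC*. These points share the difference between genotypes. With the genotype means taken out, r was 0.897 between *ADC1* and *ADC2*, so that libraries high in one were high in the other, but -0.002 between *ADC2* and *ODC* and 0.06 between *ADC1* and *ODC*. *ADC1A* then had an r of 0.44 with *ADC1*, 0.283 with *ADC2* and -0.147 with *ODC*. Its r with the other arginine decarboxylase genes was thus not below 0 within genotypes. Among the *ATG5*-silenced libraries, replicate 3 had the highest and replicate 1 the lowest value of both *ADC1* and *ADC2*.

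Among 451 other tested genes with a name, those most like *ADC2* across the 9 libraries were *RISP2*, a gene for the mitochondrial Rieske iron-sulfur protein (Pearson's r = 0.994), the initiation factor gene *eIF-4A-10* (0.991) and *GAPC1*, for a cytosolic glyceraldehyde-3-phosphate dehydrogenase (0.991). For *ADC1* they were *RISP2* (0.988), *ADC2* (0.985) and the citrate synthase gene *cit1* (0.981). For *ODC* they were the transcription factor gene *ERF5*, the small GTPase gene *Rab8-5* and the hexokinase gene *Hxk1*, each at 0.964. All of these were lower in FPKM in *ATG5*-silenced pollen, such as *cit1*, with a mean of 29.1 FPKM in WT and 6.71 FPKM with *ATG5* silenced. The genes most like *ADC1A* were *SUP1* (0.924), *KED* (0.914) and *GGH2* (0.870). These correlations are a description over 9 libraries that differ by genotype.

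Further along the pathway, a list of 27 genes was taken by name, and 8 of them passed the filter on low values. No gene was matched by the names sought for the enzymes from agmatine to putrescine, for spermidine and spermine synthases or for arginase. These steps are therefore not covered. The other 19 had no library at 0.5 FPKM or more. They include the 4 named putrescine N-methyltransferase genes, which divert putrescine to nicotine and which were at 0 in every WT and *ATG2*-silenced library, and 12 of the 14 nicotine genes in all. By the adjusted p, 2 of the 8 genes were lower and 1 was higher with *ATG5* silenced, where 24.9% of all tested genes were lower and 27.1% higher. The share that was lower was thus near that of all tested genes. For the share that was higher, 8 genes are too few to read a shortfall, and without *ATG5*-silenced replicate 2 the count was 2. In *ATG2*-silenced pollen limma passed 0 of the 8 genes (2 lower and 1 higher at an unadjusted p under 0.05). The median log2 change of the 8 was -0.05 with *ATG5* silenced and -0.13 with *ATG2* silenced, against -0.03 and 0.03 for all tested genes.

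*SAMDC* (GeneID:107801519), the gene for S-adenosylmethionine decarboxylase, which feeds the step from putrescine to spermidine, was abundant. It lay at 183, 187 and 197 FPKM in WT, at 179, 195 and 174 FPKM with *ATG2* silenced and at 126, 138 and 159 FPKM with *ATG5* silenced. The *ATG5*-silenced libraries were below the others as deposited, but after scaling the log2 change was -0.06 (95% interval from -0.24 to 0.11, adjusted p = 0.519). Without scaling (-0.43, adjusted p = 0.00265) and as TPM (-0.36, adjusted p = 0.00876) it passed as lower.

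For S-adenosylmethionine synthetase, 2 genes with a name were tested, called *SAMS1* and *SAMS2* here. Whether their changes differ was not tested. *SAMS1* (GeneID:107785513) had 624 ± 8.58 FPKM in WT, 525 ± 46.5 FPKM with *ATG2* silenced and 337 ± 26.4 FPKM with *ATG5* silenced (SD, n = 3 libraries). It fell in *ATG5*-silenced pollen by 0.53 on the log2 scale (adjusted p = 0.00163) and had a log2 change of -0.38 in *ATG2*-silenced pollen, where it missed the adjusted p (0.0915). Between the silenced lines *SAMS1* had a log2 difference of -0.14 (adjusted p = 0.239). It passed there as lower without scaling (-0.64), as TPM (-0.51) and after quantile normalization (-0.38). *SAMS2* (GeneID:107807060) had 79.8 ± 11.1 FPKM in WT and 60.3 ± 4.26 FPKM with *ATG5* silenced (SD, n = 3 libraries), with a log2 change of -0.03 after scaling (adjusted p = 0.790). It passed as lower without scaling (-0.40) and as TPM (-0.32). With *ATG2* silenced it had 102 ± 8.72 FPKM (SD, n = 3 libraries), above every WT library as deposited, and a log2 change of 0.22 that missed the adjusted p (0.236). Between the silenced lines it passed as lower where *ATG5* was silenced, with a log2 difference of -0.25 (adjusted p = 0.0379).

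The other genes that passed were *eIF-5A1* (GeneID:107820748) and *SAHH* (GeneID:107786358). *eIF-5A1* encodes a translation factor whose activity needs hypusine, a residue made from spermidine. It lay at 12.4, 11.2 and 12.0 FPKM in WT, at 10.4 to 16.5 FPKM with *ATG2* silenced and at 4.88, 6.44 and 6.35 FPKM with *ATG5* silenced, and fell by 0.62 on the log2 scale (adjusted p = 0.00807). *SAHH*, whose enzyme removes S-adenosylhomocysteine after methyl transfer, rose by 0.42 (adjusted p = 2.83e-04). Its deposited FPKM overlapped with WT, and its log2 change was 0.06 without scaling and 0.13 as TPM, neither of which passed. Under these 2 scalings 6 of the 8 genes passed as lower with *ATG5* silenced and 0 as higher, where 39.3% and 36.4% of all tested genes passed as lower and the median of all genes was -0.30 and -0.25.

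The remaining 3 tested genes did not pass in either line after scaling. *MPO2* (GeneID:107763693), named for a methylputrescine oxidase, had 7.26 ± 0.537 FPKM in WT and 4.61 ± 0.560 FPKM with *ATG5* silenced (SD, n = 3 libraries), with a log2 change of -0.27 (adjusted p = 0.137). It passed as lower under the 3 other scalings, at -0.61 without scaling (adjusted p = 0.00277), -0.54 as TPM (0.00544) and -0.44 after quantile normalization (0.0345). *QPT1B* (GeneID:107829123), for quinolinate phosphoribosyltransferase of NAD and nicotine synthesis, lay at 0.410 to 1.23 FPKM over all libraries. *pao* (GeneID:107832568), a name shared with an enzyme of chlorophyll breakdown, had 17.4 ± 1.56 FPKM in WT and 13.2 ± 0.408 FPKM with *ATG5* silenced (SD, n = 3 libraries), with a log2 change of -0.02 (adjusted p = 0.895). It passed as lower without scaling (-0.37, adjusted p = 0.0094) and as TPM (-0.30, adjusted p = 0.0347).

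**Figure D4:**
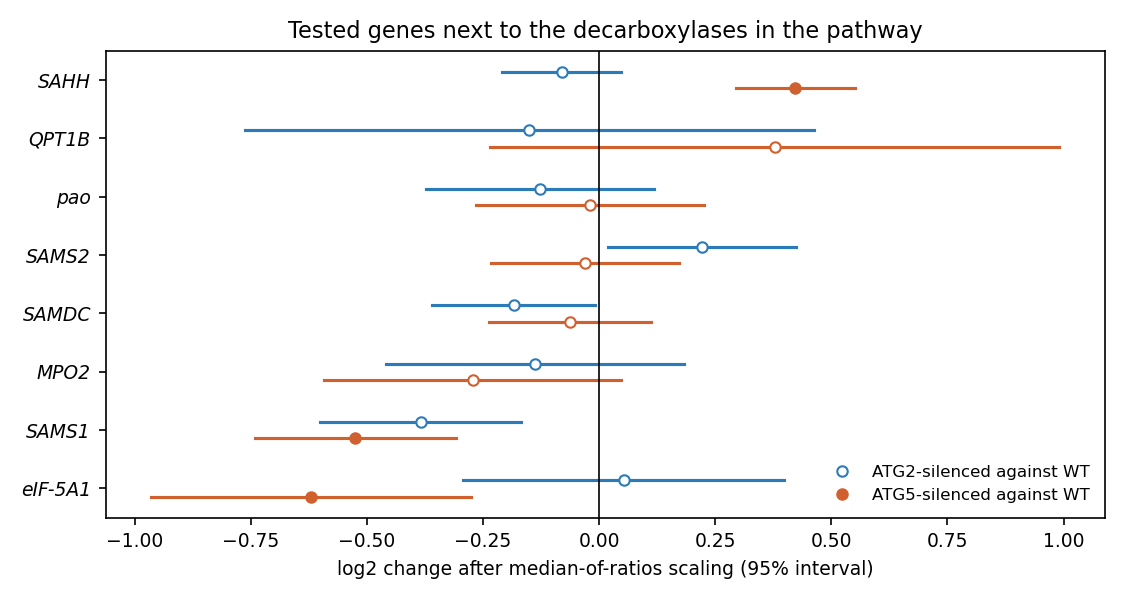
log2 change with its 95% interval (x axis) of the 8 tested genes next to the decarboxylases (y axis), in *ATG2*-silenced (blue) and *ATG5*-silenced pollen (orange) against WT; filled points have an adjusted p under 0.05 over all genes. In *ATG5*-silenced pollen *eIF-5A1* and *SAMS1* lie below 0 and *SAHH* above, at -0.62, -0.53 and 0.42.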

How the data were processed

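Pollen RNA of 9 libraries was extracted with a MiniBEST kit, and libraries made with an MGIEasy kit. The authors removed adaptors with SOAPnuke, aligned reads to the Ntab-TN90 genome (HISAT2, Bowtie 2) and estimated gene levels by RSEM; versions are not given in the sources used here. FPKM was deposited, which the authors had normalized for transcript length and mapped fragments, as 1 table per library, with 1 decimal in the *ATG2*-silenced libraries and WT replicate 3 and 2 decimals in the others. Tables of read counts were not used here, so the study's DESeq2 test was not repeated and counting errors are not given. Each table has 1 line without a gene, which was left out.

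Here, libraries were scaled by median-of-ratios factors over 14192 genes above 1 FPKM in all libraries, relative to WT, and 0.5 was added before the log2. The test took the 27836 genes that reached 0.5 FPKM in 3 or more libraries, in 1 limma fit of the 9 libraries (lmFit, eBayes with trend and robust; R 4.3.3, limma 3.58.1, statmod 1.5.0, jsonlite 2.0.0; plots with Python 3.11.15 and matplotlib 3.10.9), with Benjamini-Hochberg adjustment over all tested genes. Sums, shares and ratios were compared by exact permutation tests of 3 against 3 libraries. The script was tested on simulated data.

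Names came from a RefSeq table of assembly ASM71507v2, which holds 53952 of the identifiers and names 1081 of them, with no coordinates used since the build differs. The text names the 4 decarboxylase genes, the silenced genes, the genes of the polyamine list, and for each decarboxylase gene the 3 named genes of highest r. From the list, 4 genes whose symbols match *AO* by letters alone were left out. Members and lists were chosen with earlier results of these data known. The alternatives were other scalings, pseudocounts, filters, decimals, a fit without moderation by trend, fits of 2 groups, a replicate block and leaving out each library. The study calls its replicates independent biological replicates.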

Additional observations from a re-analysis of the deposited data

Results flagged for a closer look

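All 4 genes are listed here because the direct comparison of the silenced lines gave an adjusted p under 0.05 in limma. The WT libraries still entered the estimate of the spread in that fit. In a limma fit of the 2 silenced lines alone, *ADC1A* missed the adjusted p (0.0697), while *ADC1*, *ADC2* and *ODC* stayed under 0.05. The log2 difference of *ATG5*-silenced from *ATG2*-silenced pollen was -1.27 for *ADC1*, -1.64 for *ADC2*, -0.66 for *ODC* and 0.31 for *ADC1A*. For *ADC1*, *ADC2* and *ODC*, each *ATG5*-silenced library was below each *ATG2*-silenced library, with and without scaling. How often this holds among all tested genes was not computed. For *ADC1A* the libraries overlapped and the sign depends on the scaling. What sets *ADC1A* apart from the other arginine decarboxylase genes was not tested.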

How the results depend on the processing

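*ADC1*, *ADC2* and *ODC* kept an adjusted p under 0.05 and their direction in *ATG5*-silenced pollen against either other genotype under all 20 alternatives. Values of *ADC1A*, small changes in *ATG2*-silenced pollen, the *ODC* share and the counts did not all keep their direction or their side of the threshold. By the scaling, this also held for *SAHH*, *SAMDC*, *SAMS2*, *MPO2* and *pao*, and for *SAMS1* between the silenced lines, as given above. The others follow, and where no reason is given the cause was not tested. The log2 change of *ADC1A* in *ATG5*-silenced pollen against WT and against *ATG2*-silenced pollen was -0.017 and -0.173 without scaling, 0.053 and -0.051 as TPM and 0.202 and 0.207 after quantile normalization, with no adjusted p under 0.05. It was 0.341 and 0.312, with an adjusted p above 0.05, without a filter (more genes tested), without trend and robust, and in fits of 2 groups (fewer libraries). Leaving out 1 library gave 0.250 to 0.454 and 0.220 to 0.428. In *ATG2*-silenced pollen *ADC2* had a log2 change of 0.104 without scaling, 0.051 as TPM and 0.001 after quantile normalization, and -0.078 to 0.021 without 1 library. *ADC1A* had -0.005 after quantile normalization and -0.040 to 0.080 without 1 library. The difference of the *ODC* share between *ATG5*-silenced pollen and WT was -3.07 to 0.411 percentage points without 1 library, above 0 without *ATG5*-silenced replicate 2 or WT replicate 2.

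The decarboxylase genes called lower in *ATG5*-silenced pollen numbered 1 to 3 without 1 library. Of the 8 further pathway genes, 6 were lower and 0 higher against WT both without scaling and as TPM, and 6 and 5 lower and 0 higher against *ATG2*-silenced pollen. Under these scalings 39.3% and 36.4% of all tested genes were lower against WT, and 48.3% and 42.7% against *ATG2*-silenced pollen. Without 1 library, 1 to 2 were higher against either genotype (2 without *ATG5*-silenced replicate 2). Against *ATG2*-silenced pollen, where 2 were lower as reported, 1 to 2 were lower without 1 library (1 without *ATG2*-silenced replicate 1 or 2 or any *ATG5*-silenced replicate), and 1 without trend and robust. The replicate block also left 1 lower there and changed no other call. Deviations of libraries with the same number correlated at -0.044 to 0.053, and those with different numbers at -0.11 to 0.069. Pairing by number was thus not detectable, which with 3 libraries per group does not show that it is absent. The log2 change of *ADC2* with the block was -1.66 (adjusted p = 1.62e-04). Counts were not at hand, so depth could not be weighed beyond the FPKM.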
